A study of Rattus norvegicus with 3 samples.

Results

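Heat shock chaperones of the cytosol and mitochondria were examined in rat renal proximal tubules. The members were 10 genes: Hspd1, Hspe1, Hspa8, Hspa9, Hspa4, Hspb1, Hspb8, Dnaja1, Dnajb1 and Hsp90ab1. Every probe set annotated to exactly 1 of these symbols was taken, which gave 16 of 31099 probe sets and 9 of the 14217 genes that could be named. Hspa8, the constitutive cytosolic Hsp70, had no such probe set, because its probe set was annotated to a further gene, and it is given no value. Its levels were not analysed here.

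The study profiled proximal tubules of male Sprague-Dawley rats, 7 to 8 weeks old, on 3 Affymetrix arrays, 1 per tubule preparation. All 3 arrays formed 1 group with no treated, undigested or other control group, and every preparation had gone through the same handling: heparin (250 u), perfusion with cold saline and then collagenase (2 mg/ml), digestion of the cortex for 20 minutes and a 42.5% Percoll gradient. The labels do not say whether the preparations came from different animals or pooled ones, so the spread between arrays may be partly technical. With 1 group, no test between conditions could be made. What follows describes levels and their range over 3 single preparations.

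Chaperones bind unfolded or newly made proteins and keep them from aggregating until they fold, cross a membrane or are degraded. Hsp70 proteins do so in cycles of ATP use that J-domain proteins start and nucleotide exchange factors end, Hsp90 acts late on signalling proteins, small heat shock proteins hold unfolded chains without ATP, and the chaperonin of mitochondria encloses them in a chamber. Many of these genes are expressed without stress and are raised further by heat shock factor 1, which binds heat shock elements, arrays of inverted GAA units. The proximal tubule is rich in mitochondria, and its chaperones have been studied in ischaemia and toxic injury.

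The letters of heat shock elements were searched in RefSeq promoter windows (GRCr8) of 300 bases, running from 250 before to 50 after each annotated start. The letters were not used to select the members. The members were chosen as heat shock genes, however, so a share above that of all windows is not independent of the choice. A 3-unit element was searched as GAANNTTCNNGAA or TTCNNGAANNTTC, which are reverse complements, and a 2-unit element as GAANNTTC or TTCNNGAA, each its own reverse complement and contained in any 3-unit match. All 10 members had a window. The 3-unit letters occurred in 4 of 10 members, Hspd1, Hspe1, Hspa8 and Dnaja1, against 0.798% of all 33469 windows. Hspd1 and Hspe1 share the same matched bases, as given below. The 2-unit letters occurred in 8 of 10, against 15.9% of all windows. Hspa4 and Hsp90ab1 held neither. These matches are descriptions of letters and do not show binding.

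Hspd1 and Hspe1 encode the partners of the mitochondrial chaperonin and are transcribed away from each other. Their starts lay 290 bases apart, their windows shared 211 bases, and the match in both was the same run of 18 bases, so the pair counts as 1 sequence. It is shown from the Hspe1 strand, -250 to -1 from the start (chr9:64084077-64084326, plus strand), with the bases of its 2 overlapping 3-unit matches, -65 to -48, in capitals.
Hspe1: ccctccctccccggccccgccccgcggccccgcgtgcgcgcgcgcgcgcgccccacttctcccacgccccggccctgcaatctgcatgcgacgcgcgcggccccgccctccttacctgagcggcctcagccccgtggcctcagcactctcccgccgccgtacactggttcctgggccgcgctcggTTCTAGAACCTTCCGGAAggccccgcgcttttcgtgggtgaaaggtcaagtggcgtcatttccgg

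Shorter windows of 30 bases are shown for the genes whose levels between arrays are described in most detail below, again with the matches in capitals. In Dnaja1 (chr5:60638404-60638433, plus strand) the 3-unit match lay at +10 to +22. Hsph1, an Hsp110 protein and not a member, is shown beside it (chr12:10427323-10427352, plus strand) with its 3-unit match at -36 to -24. Dnajb1 (chr19:41431142-41431171, minus strand) held 2-unit matches at -11 to -4 and, outside the bases shown, +18 to +25. Hspb1 (chr12:26432406-26432435, minus strand) held them at -129 to -122 and, not shown whole, -109 to -102.
Dnaja1: ggccgggcgGAACTTTCCAGAAcgctcggt
Hsph1: tgccgcagaTTCTGGAAAGTTCtcctcagt
Dnajb1: cgacgcatcgggaggggcgGAAGGTTCtgg
Hspb1: ctagaGAAGTTTCcagatgggggcagaacc

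**Figure D1:**
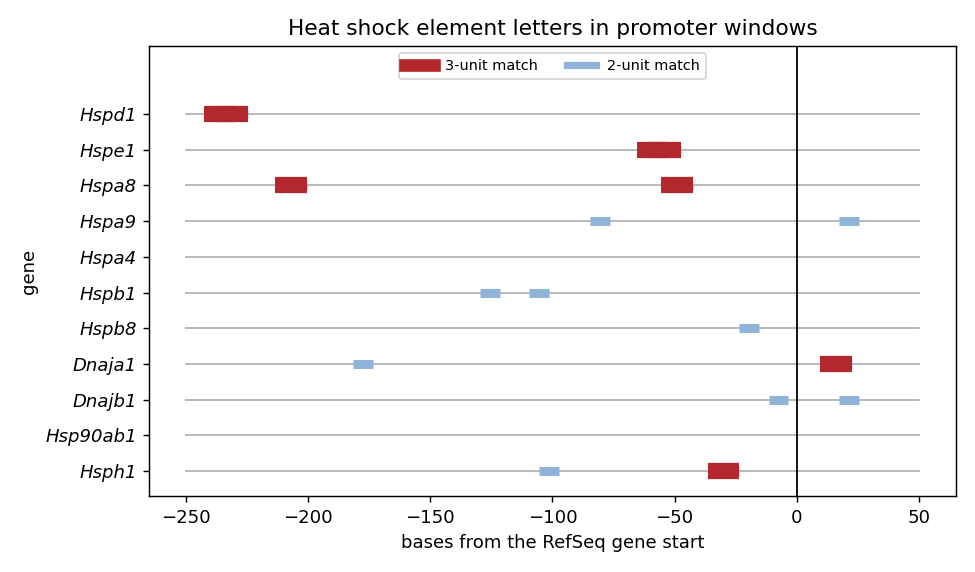
Positions of the 3-unit (red) and 2-unit (blue) heat shock element letters in the promoter windows of the 10 members and of Hsph1, in bases from the annotated start (vertical line). Hspd1 and Hspe1 show the same matched bases from opposite strands, and the Hspa4 and Hsp90ab1 lines are empty.

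Across the series, the median signal per array ran from 34.9 to 37.4 and the 75th percentile from 167 to 181. The 10 proximal tubule markers listed were all measured, with mean signals from 3443 to 10604. Markers of other cells were bright in part. The 6 of the thick ascending limb had means from 58.6 to 4942 (Umod). The 8 of macrophages and dendritic cells had means from 2.11 to 4263 (Cd74). The 4 measured lymphocyte markers of 6 listed had means from 2.69 to 32.3. These means give no estimate of purity. No pair of arrays shared an identical value at any probe set. Signals are the deposited linear intensities. Levels of different genes, or of different probe sets, are not ranked, since probes differ in affinity. Differences between arrays are on the scale log2(signal + 16) centred on each array's median, and a range is the highest minus the lowest of the 3 arrays.

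Most member probe sets lay above the array medians. Of the 16 member probe sets, 11 exceeded the median of every array, against 45.8% of all non-control probe sets. The median of their mean signals was 792, beside 36.1 over all probe sets. The exceptions were both probe sets of Hspb8, 2 of the 4 of Hspa9, and the only one of Hspa4.

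**Figure D2:**
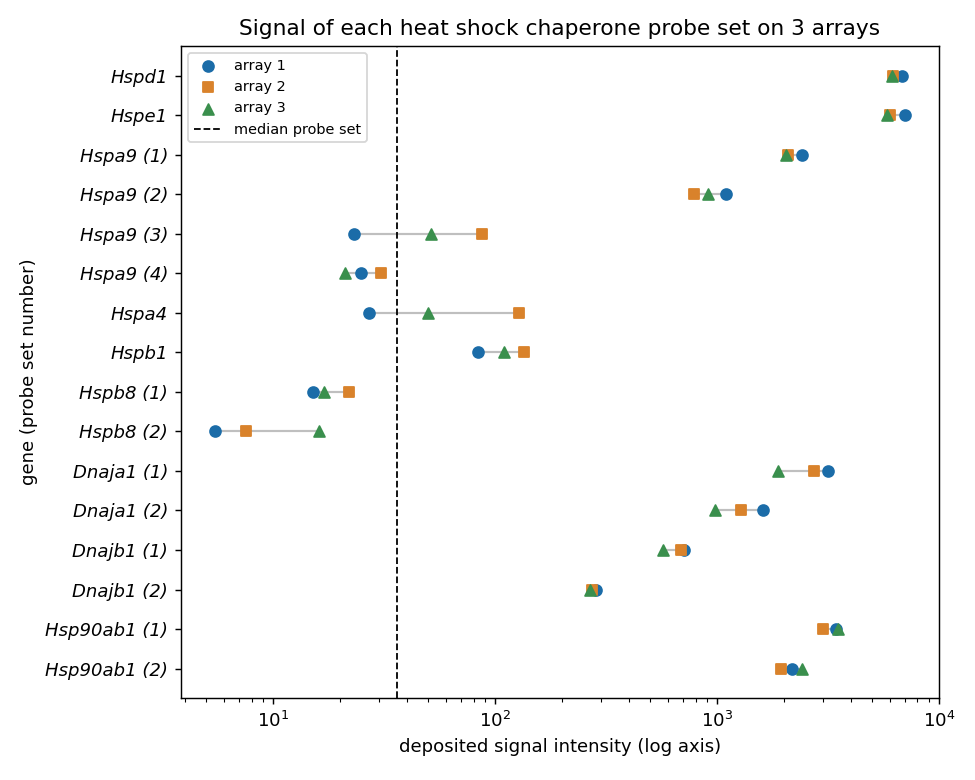
Deposited signal (log axis) of each of the 16 chaperone probe sets, numbered within a gene from the highest mean, on array 1 (circle), array 2 (square) and array 3 (triangle); the dashed line is the median over all probe sets, 36.1. Hspd1 and Hspe1 lie at 5859 and above on every array, while Hspa4 and the third Hspa9 probe set straddle the line.

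At their brightest probe sets, the mitochondrial chaperones lay above the array medians and differed little between preparations. Hspd1, the ring-forming Hsp60 subunit, gave 6821, 6187 and 6162 on arrays 1, 2 and 3 (6390 ± 374, SD, n = 3). Hspe1, the Hsp10 lid of the same chamber, gave 6994, 6009 and 5859 (6287 ± 617). Both were highest on array 1 and close together on the other arrays. Their ranges were 0.15 and 0.23 log2 units, beside a median of 0.30 for all genes above the median signal. Those genes include dimmer ones, in which wide ranges were commoner, as given below. The 10 proximal tubule markers, with means from 3443 to 10604, had a median range of 0.20, so narrow ranges were not particular to this pair.

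Hspa9, the mitochondrial Hsp70 that pulls proteins through the inner membrane, was measured by 4 probe sets that did not give one picture. The brightest gave 2404, 2083 and 2040 (2176 ± 199, range 0.21). The next gave 1092, 787 and 906 (928 ± 154, range 0.47). Both were highest on array 1 as deposited.

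The other Hspa9 probe sets were dim. The third gave 23.1, 87.2 and 51.3 (53.9 ± 32.2, range 1.39), lowest on array 1 and highest on array 2, opposite to the bright pair. The fourth gave 24.9, 30.5 and 21.0 (25.5 ± 4.74) and lay below the array median on all 3 arrays. The spread of the dim probe sets is therefore not taken as that of the gene, whose value below is that of its brightest probe set.

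The place of the mitochondrial members in the order of arrays depended on scaling. Centred on array medians, Hspd1, Hspe1 and Hspa9 were highest on array 1, by 0.08, 0.14 and 0.13 above their own means. After quantile normalization, which equalises the whole distribution, Hspd1 and Hspa9 were highest on array 2, Hspe1 remained highest on array 1, and all of them were lowest on array 3, with ranges from 0.09 to 0.15. The 3' to 5' signal ratio of the beta-actin controls, a measure of RNA integrity, was 3.85, 3.28 and 3.66 on arrays 1, 2 and 3. That of the GAPDH controls was 1.52, 1.52 and 1.40, in a different order of arrays. The part of RNA integrity in these small differences was not tested.

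The J-domain proteins, which deliver substrates to Hsp70 and trigger its ATP use, included a member whose 2 probe sets both differed between preparations by over 1.5-fold. Dnaja1 gave 3151, 2721 and 1891 on arrays 1, 2 and 3 (2588 ± 640). Its second probe set gave 1605, 1277 and 975 (1285 ± 315). On both probe sets array 1 was highest and array 3 lowest, with deposited signals 1.67-fold and 1.65-fold apart and ranges of 0.67 and 0.65. The probe sets read the same RNA and so repeat the measurement, not the preparation.

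Dnajb1, the main stress-inducible J protein of the cytosol, did not spread as far. Its brighter probe set gave 711, 690 and 569 (657 ± 76.4, range 0.25) and the dimmer one 285, 272 and 268 (275 ± 9.09, range 0.07). Both deposited signals were again highest on array 1 and lowest on array 3, by under 1.5-fold. After quantile normalization Dnaja1 was still lowest on array 3 (0.40 below its mean) with arrays 1 and 2 level (0.20 above it on each), and Dnajb1 was highest on array 2.

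Among cytosolic Hsp90 and the Hsp70 exchange factors, Hsp90ab1 spread little between preparations and Hspa4 spread widely. Hsp90ab1, the constitutive Hsp90 that holds kinases and steroid receptors, gave 3417, 3004 and 3496 (3306 ± 264, range 0.29) and, on its second probe set, 2185, 1941 and 2406 (2178 ± 233, range 0.38). Both probe sets were highest on array 3 and lowest on array 2. After quantile normalization the first was still highest on array 3, but was lowest on array 1, with a range of 0.16.

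Hspa4, an Hsp110-type protein that releases ADP from Hsp70, had the largest range of the 9 genes. Its single probe set gave 27.1, 128.6 and 49.9 (68.5 ± 53.3), a range of 1.74 log2 units, with array 2 far above the others and array 1 below the array median. Without array 2, no member probe set ranged 2-fold, against 1.24% of all probe sets above the median signal. Since only 1 probe set read Hspa4 and its signal was near the middle of the array, no second measurement bears on this difference. By Euclidean distance between the 3 centred values, the genes above the median signal that lay closest to Hspa4 were Swi5 (0.10), RT1-CE12 (0.21), Metrn (0.33), Pik3r1 (0.37) and Dusp23 (0.39). Pik3r1 gave 7.80, 86.3 and 16.7, so that it passed the median signal only through array 2, and its place among these genes is partly set by that filter. With 3 arrays this likeness is a description only.

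Of the small heat shock proteins, Hspb1 lay above the median of every array and Hspb8 below it. Hspb1, an actin-binding chaperone also known as Hsp25 or Hsp27, gave 83.9, 135.1 and 109.2 (109 ± 25.6, range 0.59), lowest on array 1 and highest on array 2. Hspb8, which works with Bag3 in the removal of misfolded proteins, gave 15.1, 21.9 and 16.9 (18.0 ± 3.55) and 5.47, 7.51 and 16.1 (9.68 ± 5.63) on its probe sets, below the array median on every array. No detection calls were used here, so such values do not show whether the transcript was present.

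Other small heat shock genes were set beside them. Of 8 listed, 7 were measured and 3 lay above the median signal, none of which ranged 1.5-fold. Hspb6, found mainly in muscle, gave 134, 184 and 158, lowest on array 1 and highest on array 2 as Hspb1 was. Hspb7, a further muscle form, gave 47.5, 61.9 and 58.8, again lowest on array 1. Hspb2 gave 1.13, 3.25 and 4.15 (2.84 ± 1.55), below the array median on every array.

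Vessel and stromal cells, in which Hspb1 and Hspb6 are also expressed, were followed by their markers. All 5 measured endothelial markers of 6 listed were lowest on array 1, and their summed signals were 756, 1059 and 1269, with gene means from 84.8 to 289. The 8 fibroblast and smooth muscle markers summed to 535, 552 and 668, with means from 1.23 to 302. Both sums were lowest on array 1 and highest on array 3. Among the endothelial markers, Tek (124, 176 and 166) and Emcn (171, 288 and 228) were lowest on array 1 and highest on array 2, as Hspb1 was, and the other 3 were highest on array 3. Their part in the Hspb1 values was not tested, and in such mixed RNA fewer cells of a type and less RNA per cell cannot be told apart.

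**Figure D3:**
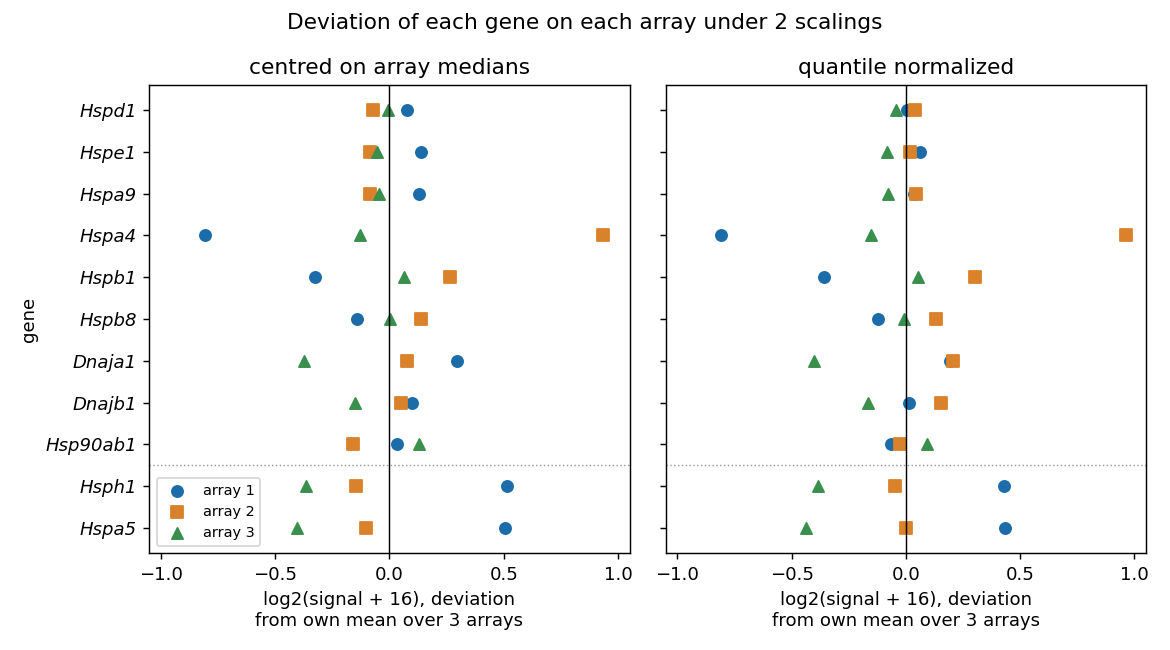
Deviation of each member gene (brightest probe set) from its own mean over the 3 arrays, on log2(signal + 16), centred on array medians (left) or quantile normalized (right); Hsph1 and Hspa5 stand below the dotted line for comparison. Hspa4 spans 1.74 units on the left, Dnaja1 is lowest on array 3 in both panels, and the narrow spreads of Hspd1, Hspe1, Hspa9, Dnajb1 and Hsp90ab1 change their order of arrays.

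The members were then read against the range of all probe sets. Of the 13 member probe sets with a mean above the median, 5 ranged 1.5-fold or more, against 14.1% of all such probe sets, and 2 ranged 2-fold or more, against 2.50%. The 5 were both of Dnaja1, the only ones of Hspa4 and Hspb1, and the third of Hspa9. The Dnaja1 pair repeats 1 measurement. The third of Hspa9, also 1 of the 2 at 2-fold, is a dim one whose spread was not taken as that of the gene. Left out by that filter were both Hspb8 probe sets and the fourth of Hspa9.

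Signal strength divided these calls. Among the 10 member probe sets above the 75th percentile of signal (172), 2 ranged 1.5-fold, both of Dnaja1, against 8.23% of all probe sets there. All 3 member probe sets between the median and that line ranged 1.5-fold, where the background was 20.0%, and 2 of them 2-fold, where it was 3.54%. The 3 were those of Hspa4 and Hspb1 and the third of Hspa9, and the 2 were those of Hspa4 and Hspa9. The median range was 0.38 for member probe sets and 0.31 for all. The count of 5 fell to 1 without array 1 (Hspa4), to 4 without array 2 and to 3 without array 3. A range over fewer arrays cannot be wider, and the share of all probe sets above the median fell as well. It was 14.1% with all arrays and 6.55%, 7.40% and 6.08% without arrays 1, 2 and 3.

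**Figure D4:**
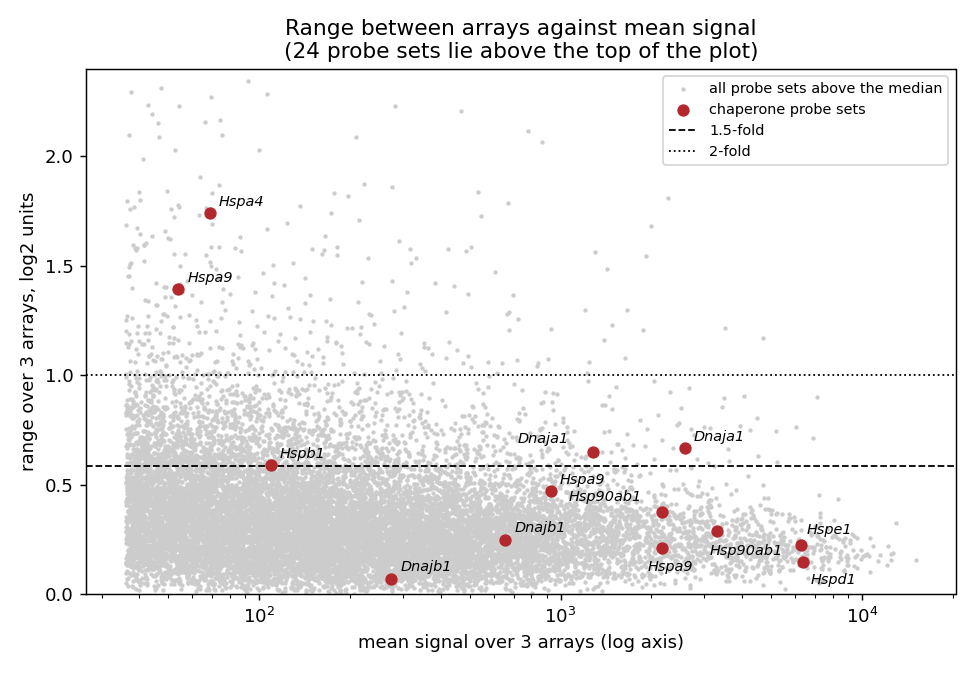
Range over the 3 arrays (log2 units) against mean signal (log axis) for all probe sets above the median (grey) and for the 13 chaperone probe sets among them (red), with lines at 1.5-fold (dashed) and 2-fold (dotted). Above a signal of 172 only the pair of Dnaja1 probe sets lies over the dashed line among the members, and Hspa4 and the third Hspa9 probe set lie over the dotted line at low signal.

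Taking each gene at its brightest probe set, 8 of 9 members lay above the median signal, as did 9156 of all 14217 genes. Of the 8 members, 3 ranged 1.5-fold: Hspa4, Dnaja1 and Hspb1. The background was 12.6% of genes. Hspb1, at a range of 0.59, lay just past the line of 0.58. The member of next widest range, Hsp90ab1, lay well short of it at 0.29. The median range of the 8 was 0.27, beside 0.30 over all 9156 genes above the median. Without array 1 only Hspa4 ranged 1.5-fold, without array 2 Dnaja1 and Hspa4 did, and without array 3 Hspa4 and Hspb1 did. The shares of all genes above the median were then 5.57%, 6.67% and 5.57%.

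The members were not all high on one preparation. Array 1 was highest for 5 of 8 genes (48.9% of all genes above the median), array 2 for 2 (15.9%) and array 3 for 1 (35.2%). Array 1 was lowest for 2 of 8 (19.8%), array 2 for 4 (52.1%) and array 3 for 2 (28.2%). The median shift of all probe sets above the median was itself 0.06, -0.06 and 0.01 on arrays 1, 2 and 3 after centring. After quantile normalization array 1 was highest for 1 of 8, array 2 for 6 and array 3 for 1, beside 32.1%, 32.0% and 35.9% of all genes.

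Partner genes of the members came from 7 lists with 91 entries, of which 84 were measured. Of the 84, 76 lay above the median signal, beside 9156 of all 14217 genes. Of the 76, 6 ranged 1.5-fold (7.89%), against the 12.6% given above, and the median range of the 76 was 0.28. Most were bright: of the 63 partner genes above the 75th percentile of signal, 4 ranged 1.5-fold, against 7.73% of all genes there. The 6 were Hsph1, Fkbp5, Chordc1, Dnaja3, Dnaja4 and Dnajb5. Without array 1 the count of 6 fell to 2, without array 2 to 2 and without array 3 to 4. The shares of all genes above the median fell to 5.57%, 6.67% and 5.57% in the same settings.

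Among the Hsp70 partners, 1 of 14 ranged 1.5-fold. Hsph1, the stress-inducible Hsp110, gave 1306, 825 and 672 (934 ± 331, range 0.88), and its second probe set 350, 206 and 214. Array 1 was highest on both. Hspa1a, the inducible cytosolic Hsp70, gave 209, 238 and 297 (248 ± 44.8, range 0.54), with array 3 highest and array 1 lowest, unlike Hsph1 and Dnaja1. Hspa1a has a nearly identical neighbour, Hspa1b, so its signal may hold both.

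Bag3, an exchange factor that is itself heat-inducible, gave 453, 390 and 530 (range 0.50). St13, which steadies Hsp70 in its ADP form, gave 2585 ± 266 with a range of 0.29, and Grpel1, the exchange factor of Hspa9, gave 1617, 1375 and 1401. None of these spread as widely as Hsph1.

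Among Hsp90 partners, 2 of 11 ranged 1.5-fold. Chordc1, a cochaperone, gave 843, 635 and 494 (range 0.69), highest on array 1 and lowest on array 3, as Dnaja1 was. Fkbp5, a glucocorticoid-induced immunophilin, gave 155.6, 95.5 and 105.3 (range 0.63) at its brightest probe set. Its second probe set, also above the median, gave 76.9, 74.4 and 65.3 (range 0.13), so the wide range of Fkbp5 rests on the first. Ptges3, the p23 cochaperone, gave 2606 ± 114 with a range of 0.15. The inducible Hsp90aa1 had no probe set of its own and is given no value.

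Of 19 other J-domain genes, 3 ranged 1.5-fold. Dnaja4 gave 766, 447 and 668 (range 0.76) and Dnaja3, the mitochondrial partner of Hspa9, gave 587, 362 and 501 (range 0.68). Both were lowest on array 2, unlike Dnaja1. Dnajb5 gave 127, 192 and 109 (range 0.66), highest on array 2, and Dnajb4 gave 280, 227 and 303 (range 0.46). Dnajc19, of the mitochondrial import motor, gave 3088 ± 382 with a range of 0.28.

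In the remaining partner lists no gene above the median signal ranged 1.5-fold. The 13 cytosolic chaperonin and prefoldin genes had a median range of 0.23, and the 14 genes for mitochondrial proteases and import 0.18. The share over all genes was 12.6% above the median signal and 7.73% above the 75th percentile. Counts of 0 in lists this short are near those shares. Tomm20, a receptor of the mitochondrial outer membrane, gave 4062, 3656 and 3789. Hsf1, the factor that drives the heat shock response, gave 102.2, 81.5 and 85.9 (range 0.28). Hsf2 gave 566, 580 and 551 (range 0.03) at its brightest probe set. Dimmer Hsf2 probe sets above the median gave 178, 138 and 149 (range 0.34) and 82.7, 93.9 and 62.2 (range 0.42), in differing array orders.

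Chaperones of the endoplasmic reticulum and immediate early genes were read beside the members. Of 20 genes of the endoplasmic reticulum list, 8 ranged 1.5-fold (40.0%), against 12.6% of all genes above the median, and 18 were highest on array 1, against 48.9%. After quantile normalization 6 ranged 1.5-fold, against 11.8%, and 16 were highest on array 1, against 32.1%. Hspa5, its Hsp70, gave 5611, 3703 and 2859 (range 0.91), also highest on array 1 and lowest on array 3, and Creld2 had the largest range of the list (1.03). Without array 1, none of the 20 ranged 1.5-fold, against 5.57% of all genes above the median. Of 16 immediate early genes above the median, 4 ranged 1.5-fold, or 6 after quantile normalization. On array 1, 12 of the 16 were lowest under both scalings, against 19.8% of all genes, or 34.7% after quantile normalization. Fos gave 199, 214 and 289, and Jun gave 652, 945 and 713. Whether these lists differ from the members was not tested, since each array is a single preparation.

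**Figure D5:**
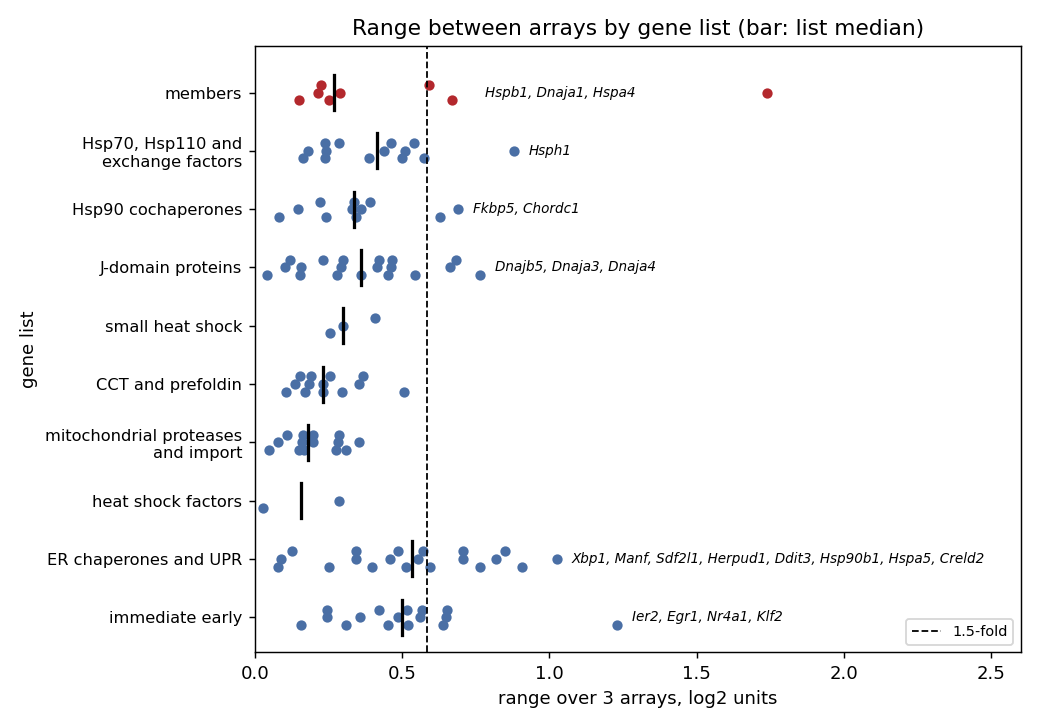
Range over the 3 arrays (log2 units) of each gene above the median signal, by list, with the list median as a bar and the dashed line at 1.5-fold; genes past that line are named to the right of each list in rising order. The members' median is 0.27, the chaperonin and mitochondrial import lists lie wholly below the line, and 8 endoplasmic reticulum genes lie above it.

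Promoter letters and ranges were set side by side for the members with a value. Of those with the 3-unit letters, Hspd1, Hspe1 and Dnaja1 had ranges of 0.15, 0.23 and 0.67. Of those with 2-unit letters only, Hspa9, Hspb1 and Dnajb1 had ranges of 0.21, 0.59 and 0.25, and Hspb8 lay below the median signal. Hspa4 and Hsp90ab1, with neither, had ranges of 1.74 and 0.29. Hspd1 and Hspe1 share 1 matched sequence, and the Hspa4 range rests on 1 probe set near the middle of the array. Whether letters and ranges are linked was not tested.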

How the data were processed

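The authors deposited linear signal intensity values for 31099 probe sets on 3 arrays. The labels' protocols give biotin-labelled cRNA and the array maker's procedure; summarisation, scaling and detection calls are not given in the sources used here. The 57 control probe sets were left out. The probe annotation supplied with the values named 1 gene for 20826 probe sets and several for 436, which were left out; 9780 had none. RefSeq gene identifiers (GRCr8) matched 20758 and changed 0 symbols.

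The scale was log2(signal + 16), with each array's median subtracted (Python 3.11.15, pandas 2.3.3, numpy 2.4.6). A gene took its probe set of highest mean signal. Counts of 1.5-fold and 2-fold ranges used features with a mean above the median. The calculation was tested on simulated data. Alternatives were other pseudocounts (1 and 64), uncentred or quantile-normalized values, other signal lines, other probe set rules, and each array left out. All members could be named; in other lists, the 2 highest genes, the lowest, any ranging 1.5-fold and a few preset genes. Tek and Emcn were named outside that rule, after their values were seen. Members and lists were chosen with earlier results of these data known. Protein sequences were not used here.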

Additional observations from a re-analysis of the deposited data

How the results depend on the processing

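Counts of member genes ranging 1.5-fold stayed at 3, with the same genes, in several settings. These were a pseudocount of 1, quantile normalization, no centring, no filter and averaged probe sets. The shares of all genes were then 17.4%, 11.8%, 12.6%, 21.9% and 10.7%, in that order, against 12.6% in the main setting. The 3 were of 8 member genes, or of 9 with no filter. Leaving out probe sets with a shared-transcript suffix could not change a member, since none has one. With a pseudocount of 64 Hspb1 was lost, leaving 2, against 5.13% of all genes. With only features above the 75th percentile of signal, the share of all genes ranging 1.5-fold was 7.73%. There, 1 of 6 member genes (Dnaja1) and 1 of 9 immediate early genes ranged 1.5-fold. Of 10 member probe sets there, 2 ranged 1.5-fold, against 8.23% of all, and 0 ranged 2-fold, against 1.46%. The pseudocount of 64 also left 1 member probe set at 2-fold, against 0.844% of all probe sets. It left 1 immediate early gene at 1.5-fold, against 5.13% of all genes. Quantile normalization moved the count of members highest on array 1 from 5 to 1, and the share of all genes from 48.9% to 32.1%.

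Leaving out each array in turn gave 1 to 4 member probe sets at 1.5-fold, 0 to 2 at 2-fold, 1 to 2 member genes, 2 to 4 partner genes, 0 to 6 endoplasmic reticulum genes and 0 to 4 immediate early genes. Shares over all features fell as well, to 6.08% to 7.40% of probe sets and 5.57% to 6.67% of genes at 1.5-fold. At 2-fold the share of probe sets fell from 2.50% to between 1.14% and 1.26%. Member probe sets above the array median numbered 11 to 13 of 16 in those settings, against 47.1% to 47.2% of all probe sets. They numbered 15 at the 25th percentile, against 65.2%, and 10 at the 75th, against 23.1%. Of 68 recomputed ranges of single members, 57 moved by less than 1 SD between arrays, 11 by more. The suffix rule, and averaging for a gene with 1 probe set, were not counted. The 57 still include ranges that could not change: for each member, leaving out the array that was neither its highest nor its lowest. With 3 arrays in 1 group, precision is limited by their number, and dim probe sets are the least certain. No paired analysis was possible because there was only 1 group.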
